A study of Mus musculus with 6 samples.

Results

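A set of 10 mouse genes linked to refractive error, axial length or ocular growth were followed in retinal RNA: the ligand genes Bmp2, Bmp4 and Gdf6, the receptor genes Vipr2 and Chrm2, the gap junction gene Gjd2, the Ras activator gene Rasgrf1, the laminin gene Lama2 and the protease genes Adamts18 and Adamts19. They were chosen by symbol, each symbol named 1 row, and all 10 were found among the 55450 genes of the deposited table. The Myrf-kd group consisted of 3 retina libraries from 8-week-old C57BL/6 mice with the genotype Myrf +/−, and the wild-type (WT) group of 3 retina libraries from mice of the same strain and age. How the Myrf allele was altered, the sex of the mice and whether animals were pooled are not given in the sources used here, and the comparison asks which retinal transcripts differ with this genotype.

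The eye grows after birth until its length matches the focal length of its optics, and an eye that grows too long is myopic. As background, the retina is held to read image focus and to send growth signals through the pigment epithelium and choroid to the sclera, the outer coat that sets eye size. Human association studies place many refractive error genes in the retina, among them genes of synaptic and gap junction signalling, and the BMP ligands, laminins and ADAMTS proteases are signalling and matrix genes of the developing eye. Myrf encodes a membrane-anchored transcription factor, and its human counterpart is linked to nanophthalmos, an abnormally short eye.

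Levels are given as FPKM, the fragments of a gene scaled to its transcript length and to the depth of the library, and differences as the log2 fold change of Myrf-kd over WT with its standard error (SE). The libraries held 62092882 to 67766951 count units in Myrf-kd and 50695091 to 70298511 in WT, taking about 4 count units as 1 fragment. Of 20 retinal neuron markers 19, and of 8 Mueller glia markers all 8, reached a mean of 1 FPKM. The retinal neuron markers summed to 25129 to 27599 CPM (counts scaled to the library total) in Myrf-kd, against 28609 to 46579 CPM in WT, without overlap. Markers of the cornea and surface epithelium, outside the retina, summed to 1.81 to 6.72 CPM in Myrf-kd and 16.1 to 26.5 CPM in WT without overlap, with 3 of 8 at a mean of 1 FPKM or more. The part of both marker sets in the results was not tested. By Xist and Y-linked genes, female tissue gave Myrf-kd 3 and WT 3 and male tissue the other 4 libraries. Myrf-kd 3 was the outlying library on principal component 1 (28.9% of the variance), at 43.8, while the other 5 libraries lay between −17.3 and 10.8. Whether all libraries come from separate animals is not stated, though each group held tissue of both sexes and so not of a single animal. The p-values measure only the spread between libraries, which may be technical in part. Myrf itself averaged 0.337 ± 0.0526 FPKM in Myrf-kd, against 0.406 ± 0.0527 FPKM in WT (SD, n = 3 each) and did not pass the test (edgeR adjusted p = 0.733).

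None of the 10 genes passed the test between Myrf-kd and WT retina. In the quasi-likelihood test of edgeR, adjusted by Benjamini-Hochberg over 13680 genes, 0 of 10 passed an adjusted p of 0.05, where 6 genes (0.0439%) passed in all, and DESeq2 and limma also called 0 of the 10. Without adjustment, 0 of 10 had an edgeR p under 0.05, beside 7.46% of all genes fitted. The Myrf-kd and WT libraries overlapped in all 10 genes, while they did not overlap in 14.6% of all genes. Fitted values were higher in Myrf-kd for 4 of the genes (Vipr2, Chrm2, Bmp2 and Adamts19) and lower for 6. The median log2 fold change of the 10 genes was −0.048, beside 0.0047 over all genes fitted. The smallest adjusted p, that of Bmp2, was 0.705 by edgeR. Exact two-sided permutation tests of the single genes gave p between 0.4 and 0.9, and 3 libraries against 3 cannot go below 0.1. In RNA of whole retina, fewer cells of a type and less RNA per cell cannot be told apart.

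**Figure D1:**
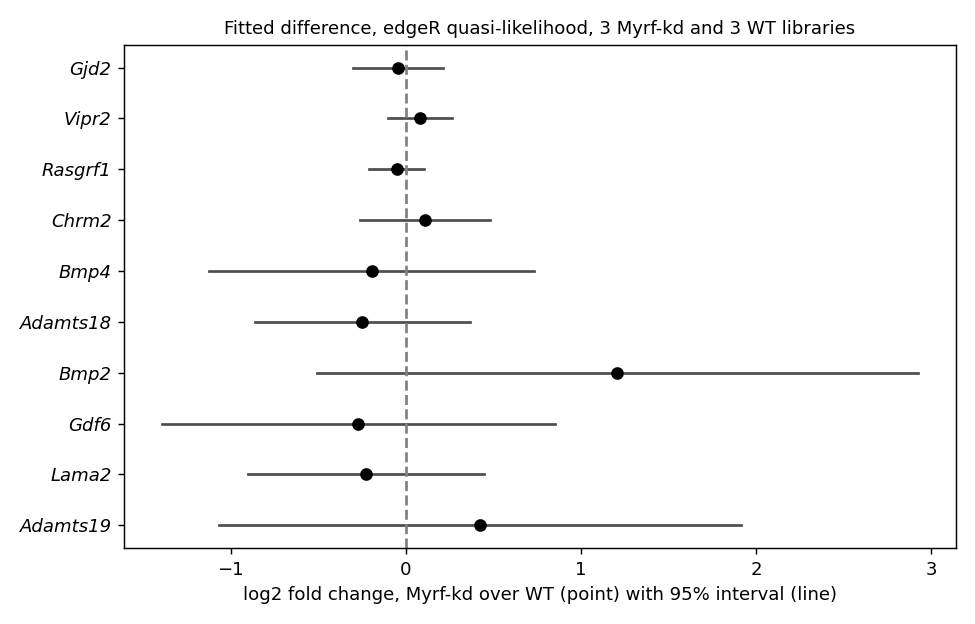
Fitted log2 fold change of Myrf-kd over WT (horizontal axis, points) with its 95% interval (lines) for each of the 10 genes, ordered from the highest mean FPKM at the top. All 10 intervals include 0, and they widen from Rasgrf1 (−0.21 to 0.10) to Bmp2 (−0.51 to 2.92).

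Although the genes share a link to eye growth, their retinal levels spanned a range from 39.1 FPKM for Gjd2 to 0.0394 FPKM for Adamts19, as means over the 6 libraries. Gjd2 stood above Vipr2 (12.0 ± 0.802 FPKM, SD, n = 6) in every library, by a ratio of 3.25. Vipr2 and Rasgrf1 (11.1 ± 0.479 FPKM) had overlapping ranges, with Vipr2 the higher of the pair in 6 of 6 libraries. Chrm2 followed at 1.77 ± 0.246 FPKM, apart from Rasgrf1 above it and from Bmp4 below it. Bmp4 (0.604 ± 0.210 FPKM) and Adamts18 (0.594 ± 0.132 FPKM) did not differ beyond their spread, nor did Bmp2 (0.244 ± 0.241 FPKM) and Gdf6 (0.225 ± 0.0975 FPKM). Lama2 (0.128 ± 0.0291 FPKM) lay above Adamts19 in 6 of 6 libraries, though their ranges overlapped. Only Gjd2, Vipr2, Rasgrf1 and Chrm2 reached the mean of 1 FPKM set for testing, and these 4 held 97.2% of the summed FPKM of the 10 genes. The other 6 were added to the fit whatever their level.

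**Figure D2:**
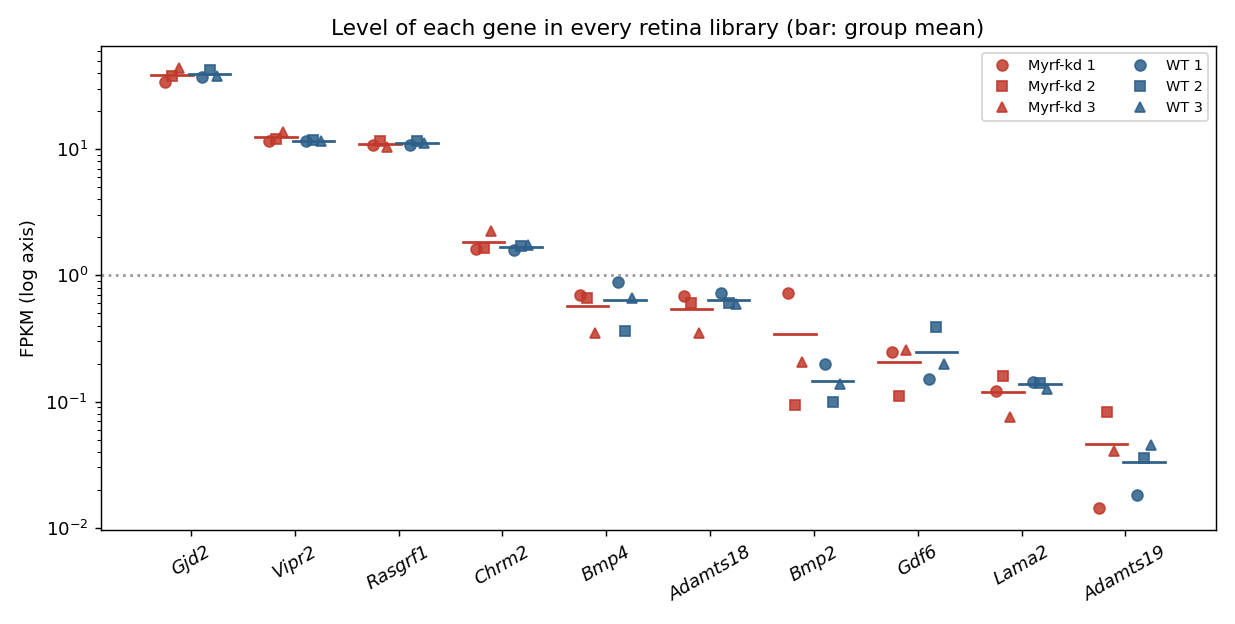
FPKM (vertical axis, logarithmic) of the 10 genes in each Myrf-kd library (red, left of each pair) and each WT library (blue, right), with symbols for the replicate number, horizontal bars for group means and a dotted line at 1 FPKM. The groups overlap in every gene. Below the dotted line the points of 1 group can spread more widely, as in Bmp2 (0.0945 to 0.725 FPKM in Myrf-kd), though not for Lama2 in WT (0.126 to 0.144 FPKM).

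The promoters of the 4 genes above 1 FPKM are shown because these genes hold nearly all of the measured RNA of the set. Each runs from 250 bases before to 50 bases after the RefSeq start of the gene in GRCm38.p6: Gjd2 at chr2:114013570-114013869 (minus strand), Vipr2 at chr12:116077476-116077775 (plus strand), Rasgrf1 at chr9:89909525-89909824 (plus strand) and Chrm2 at chr6:36387834-36388133 (plus strand). Capitals mark matches on either strand to CTGGCAC or CTGGTAC (a Myrf motif), TAATCC (bound by the photoreceptor and bipolar cell factors Crx and Otx2), TATAAA (the TATA box) and GGGCGG (the GC box).
Gjd2: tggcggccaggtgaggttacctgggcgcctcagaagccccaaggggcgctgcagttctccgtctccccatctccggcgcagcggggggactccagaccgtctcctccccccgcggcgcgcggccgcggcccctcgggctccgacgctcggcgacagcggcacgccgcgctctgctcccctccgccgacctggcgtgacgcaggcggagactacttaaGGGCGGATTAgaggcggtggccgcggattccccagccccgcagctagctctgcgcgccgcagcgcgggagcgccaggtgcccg
Vipr2: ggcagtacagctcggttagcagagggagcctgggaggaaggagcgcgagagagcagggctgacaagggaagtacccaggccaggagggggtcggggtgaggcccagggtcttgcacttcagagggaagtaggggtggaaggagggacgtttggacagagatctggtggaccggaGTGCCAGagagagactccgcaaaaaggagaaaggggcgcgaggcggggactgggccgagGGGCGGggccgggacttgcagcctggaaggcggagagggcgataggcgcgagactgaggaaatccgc
Rasgrf1: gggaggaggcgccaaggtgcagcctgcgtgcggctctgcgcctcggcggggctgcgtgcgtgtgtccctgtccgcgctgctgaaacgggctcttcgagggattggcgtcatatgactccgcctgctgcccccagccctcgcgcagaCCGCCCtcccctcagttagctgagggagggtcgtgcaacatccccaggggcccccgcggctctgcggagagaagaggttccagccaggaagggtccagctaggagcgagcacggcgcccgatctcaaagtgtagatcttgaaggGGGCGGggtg
Chrm2: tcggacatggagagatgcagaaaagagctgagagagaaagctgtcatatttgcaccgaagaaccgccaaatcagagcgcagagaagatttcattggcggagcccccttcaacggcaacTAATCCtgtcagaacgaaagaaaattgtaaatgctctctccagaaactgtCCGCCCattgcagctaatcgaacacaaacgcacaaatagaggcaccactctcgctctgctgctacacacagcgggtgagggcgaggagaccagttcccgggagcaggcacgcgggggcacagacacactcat

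Gjd2 held 1 GC box that overlaps 1 TAATCC match read on the other strand, Chrm2 held 1 match to each of the same motifs, and Rasgrf1 held 2 GC boxes. Vipr2 held 1 GC box and 1 Myrf motif, also read on the other strand, and was the only 1 of the 7 promoters examined with a Myrf motif. Over all 32841 RefSeq promoters of this length, 7.09% held a Myrf motif, 7.06% TAATCC, 13.6% the TATA box and 35.7% the GC box. All 7 promoters examined (those above and Bmp4, Adamts18 and Lama2) held a GC box and 0 of 7 a TATA box. The promoters of Bmp2, Gdf6 and Adamts19 were not examined. The G and C content was 75.0% in Gjd2, 68.3% in Rasgrf1, 65.3% in Vipr2 and 52.7% in Chrm2, beside a median of 52.7% over all promoters. CpG pairs numbered 41 in Gjd2, 26 in Rasgrf1, 22 in Adamts18, 18 in Vipr2, 16 in Chrm2, 12 in Bmp4 and 1 in Lama2. The median over all promoters was 7. A match is a description of the letters in this window, and binding was not measured.

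Gjd2 encodes the main connexin of neuronal gap junctions, which couple AII amacrine cells and cones in the retina (ENSMUSG00000068615, chromosome 2, 114009601 to 114013619, minus strand, GRCm38). Its FPKM was 34.2, 37.8 and 44.1 in Myrf-kd 1, 2 and 3 and 37.4, 42.7 and 38.3 in WT 1, 2 and 3. Myrf-kd 1 was the lowest and Myrf-kd 3 the highest library, so the WT libraries lay within the range of Myrf-kd. The means were 38.7 ± 5.01 FPKM in Myrf-kd, against 39.4 ± 2.86 FPKM in WT (SD, n = 3 each), with at least 1809 fragments in each library. The log2 fold change was −0.045 ± 0.109 SE (edgeR adjusted p = 0.926), and the 95% interval of the ratio ran from 0.810 to 1.16. Of the 18 other connexin, pannexin and junction genes listed, 5 were tested, with 0 past the threshold, 0 at an unadjusted p under 0.05 and a median log2 fold change of 0.0019. Tjp1, the scaffold of these junctions, was at 19.4 ± 0.907 FPKM in Myrf-kd, against 19.2 ± 1.35 FPKM in WT, and the horizontal cell connexin gene Gja10 at 1.65 ± 0.208 FPKM in Myrf-kd, against 1.83 ± 0.302 FPKM in WT. Panx2 averaged 7.83 ± 2.07 FPKM in Myrf-kd, against 7.73 ± 2.46 FPKM in WT, and Panx1 1.09 ± 0.222 FPKM in Myrf-kd, against 1.05 ± 0.197 FPKM in WT.

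Vipr2 encodes a receptor for vasoactive intestinal peptide (VIP) and PACAP that raises cyclic AMP (ENSMUSG00000011171, chromosome 12, 116077726 to 116146261, plus strand). It was at 11.6, 12.1 and 13.6 FPKM in libraries Myrf-kd 1, 2 and 3, against 11.6, 11.7 and 11.5 FPKM in libraries WT 1, 2 and 3. The WT libraries were close to each other and Myrf-kd 3 was the highest of all, 1.13 times the next. The means were 12.4 ± 1.05 FPKM in Myrf-kd, against 11.6 ± 0.103 FPKM in WT (SD, n = 3 each). The log2 fold change was 0.080 ± 0.077 SE (edgeR adjusted p = 0.793), with a 95% interval of the ratio from 0.931 to 1.20, and it was 0.0076 without Myrf-kd 3. Its ligand gene Vip, a marker of certain amacrine cells, averaged 3.32 ± 0.552 FPKM in Myrf-kd, against 3.79 ± 0.323 FPKM in WT (edgeR adjusted p = 0.740). The PACAP gene Adcyap1 averaged 1.12 ± 0.0732 FPKM in Myrf-kd, against 1.08 ± 0.234 FPKM in WT, and the PACAP receptor gene Adcyap1r1 1.75 ± 0.651 FPKM in Myrf-kd, against 1.22 ± 0.428 FPKM in WT. These were the 3 of 7 listed genes that could be tested, and 0 passed.

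Chrm2 encodes a muscarinic acetylcholine receptor, a class blocked by atropine, the drug used to slow childhood myopia (ENSMUSG00000045613, chromosome 6, 36388084 to 36528414, plus strand). Its FPKM was 1.63, 1.65 and 2.26 in Myrf-kd 1, 2 and 3, against 1.60, 1.72 and 1.76 in WT 1, 2 and 3. Again Myrf-kd 3 was the highest library, at 1.29 times the next, and the other 5 libraries lay between 1.60 and 1.76 FPKM. Chrm2 had a log2 fold change of 0.11 ± 0.16 SE (edgeR adjusted p = 0.863), and it was −0.065 without Myrf-kd 3. Summed markers of cholinergic amacrine cells, the source of retinal acetylcholine, were at 87.6 to 90.3 CPM in Myrf-kd and 89.6 to 95.4 CPM in WT. Of 15 other genes of cholinergic transmission 11 were tested, 5 with higher and 6 with lower estimates, and 0 passed (0 at an unadjusted p under 0.05). The nicotinic receptor genes Chrna6, Chrnb3 and Chrnb2 led this list in level, with Chrna6 at 45.7 ± 2.73 FPKM in Myrf-kd, against 45.2 ± 1.98 FPKM in WT. Chrnb3 was at 16.4 ± 0.310 FPKM in Myrf-kd, against 16.7 ± 0.649 FPKM in WT and Chrnb2 at 10.2 ± 0.551 FPKM in Myrf-kd, against 10.5 ± 0.609 FPKM in WT. The acetylcholinesterase gene Ache was at 11.0 ± 1.60 FPKM in Myrf-kd, against 9.39 ± 1.59 FPKM in WT (edgeR adjusted p = 0.737). Chrna4, another nicotinic subunit gene, was at 3.86 ± 2.05 FPKM in Myrf-kd, against 5.66 ± 0.267 FPKM in WT (edgeR adjusted p = 0.747). Its FPKM was 5.44, 1.55 and 4.61 in Myrf-kd 1, 2 and 3, so Myrf-kd 2 was the lowest, against 5.57, 5.96 and 5.44 in WT 1, 2 and 3.

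The 3 ligand genes were all scarce, and their libraries scattered without a shared order. Bmp2 (ENSMUSG00000027358, chromosome 2, 133552159 to 133562885, plus strand), which encodes a secreted bone morphogenetic protein, was at 0.725, 0.0945 and 0.206 FPKM in libraries Myrf-kd 1, 2 and 3, against 0.199, 0.0989 and 0.138 FPKM in libraries WT 1, 2 and 3. Myrf-kd 1 stood 3.52 times above the next library, Myrf-kd 3, while Myrf-kd 2 was the lowest of all 6. These values rest on 48.2 fragments in Myrf-kd 1 and 5.25 to 14.5 in the other libraries. The log2 fold change of 1.21 ± 0.72 SE (edgeR adjusted p = 0.705) was 0.035 without Myrf-kd 1. With the omission of Myrf-kd 2 the unadjusted p of Bmp2 was 0.030 (edgeR adjusted p = 0.799).

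Of the markers of tissues around the retina, some were highest in Myrf-kd 1 and others lowest. The highest there were 3 of 8 fibroblast and scleral matrix, 3 of 8 ciliary body and iris and 3 of 10 pigment epithelium markers. The lowest there were 1, 2 and 4 markers of these lists, in the same order. The 8 fibroblast and scleral matrix markers summed to 97.6, 42.9 and 37.1 CPM in Myrf-kd 1, 2 and 3 and to 59.3, 55.5 and 61.9 CPM in WT 1, 2 and 3. The matrix glycoprotein gene Fbln1 was at 6.88 FPKM in Myrf-kd 1, against 0.333 to 0.666 FPKM in the WT libraries, and the proteoglycan gene Fmod at 5.74 FPKM in Myrf-kd 1, against 2.00 to 2.41 FPKM in the WT libraries, both named after their values were seen. The collagen genes Col1a1 and Col3a1 and the proteoglycan genes Dcn and Lum were lower in Myrf-kd 1 than in every WT library, with Col1a1 at 0.872 FPKM in Myrf-kd 1, against 0.919 to 1.57 FPKM in the WT libraries. The collagen gene Col1a2 went the other way, at 0.944 FPKM in Myrf-kd 1, against 0.802 to 0.859 FPKM in the WT libraries. The ciliary body and iris markers of Myrf-kd 1 summed to 189.8 CPM, within the 169 to 240 CPM of the other libraries. Aqp1 had the highest FPKM of this list, and single markers went both ways. Wfdc1 was at 4.60 FPKM in Myrf-kd 1, against 2.24 to 2.70 FPKM in the WT libraries. Zic1 was at 1.36 FPKM in Myrf-kd 1, against 0.759 to 0.829 FPKM in WT, and Slc4a5 at 4.24 FPKM, against 4.58 to 4.69 FPKM in WT. These markers too were named after their values were seen. Lens markers summed to 0.592 CPM in Myrf-kd 1 and 0.191 CPM in Myrf-kd 2, with 6 and 7 of 8 listed without signal. The part of these markers in the Bmp2 value was not tested.

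**Figure D3:**
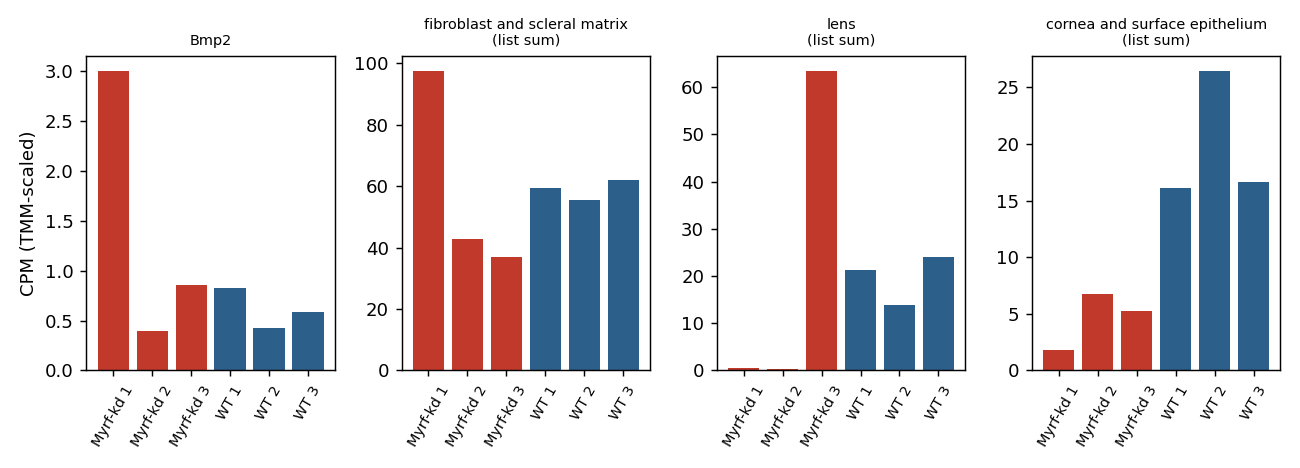
CPM (vertical axes, starting at 0, a scale for each panel) of Bmp2 and of the summed fibroblast and scleral matrix, lens, and cornea and surface epithelium markers in each Myrf-kd library (red) and each WT library (blue). Bmp2 and the fibroblast sum are highest in Myrf-kd 1, at 3.01 and 97.6 CPM, and the lens sum is highest in Myrf-kd 3, at 63.5 CPM.

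Bmp4, a ligand gene needed for eye and lens formation (ENSMUSG00000021835, chromosome 14, 46383520 to 46390669, minus strand), was at 0.700, 0.659 and 0.347 FPKM in libraries Myrf-kd 1, 2 and 3. The values were 0.889, 0.364 and 0.663 FPKM in libraries WT 1, 2 and 3, so each group held 1 low library. The log2 fold change was −0.20 ± 0.39 SE (edgeR adjusted p = 0.909). Without Myrf-kd 3 the value was 0.053, and without WT 1 0.095. Gdf6, a ligand gene known from the dorsal retina and from human eye malformations (ENSMUSG00000051279, chromosome 4, 9844372 to 9862345, plus strand), was at 0.247, 0.111 and 0.254 FPKM in libraries Myrf-kd 1, 2 and 3, against 0.150, 0.389 and 0.198 FPKM in libraries WT 1, 2 and 3. WT 2 was the highest and Myrf-kd 2 the lowest library, on 7.25 to 20.2 fragments over all libraries. The log2 fold change was −0.27 ± 0.47 SE (edgeR adjusted p = 0.892), and it was 0.021 without Myrf-kd 2 and 0.22 without WT 2.

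Of the other genes of the BMP pathway, those with a mean of at least 1 FPKM were tested, and 0 passed. Of 20 other BMP, GDF and TGF-beta ligand genes 6 were tested, with a median log2 fold change of 0.073. Tgfb2 averaged 9.37 ± 1.21 FPKM in Myrf-kd, against 8.81 ± 0.683 FPKM in WT, Tgfb3 6.71 ± 0.957 FPKM in Myrf-kd, against 5.86 ± 0.558 FPKM in WT, Gdf11 3.37 ± 0.654 FPKM in Myrf-kd, against 3.17 ± 0.127 FPKM in WT, and Bmp5 2.51 ± 0.283 FPKM in Myrf-kd, against 2.24 ± 0.147 FPKM in WT. Of 15 receptor and SMAD genes 14 were tested, 4 with higher and 10 with lower estimates and a median of −0.100. An unadjusted p under 0.05 by edgeR was reached by 2 of the 14, beside 7.46% of all genes fitted. Acvr2b, a type II receptor gene shared by activins and BMPs, was at 3.38, 3.47 and 4.17 FPKM in libraries Myrf-kd 1, 2 and 3, against 5.04, 5.36 and 4.90 FPKM in libraries WT 1, 2 and 3. The groups did not overlap, and the log2 fold change was −0.49 ± 0.11 SE (edgeR adjusted p = 0.667). Smad1, a transducer of BMP signals, averaged 3.63 ± 0.558 FPKM in Myrf-kd, against 4.54 ± 0.312 FPKM in WT (edgeR adjusted p = 0.667). Smad5, its close relative, was at 15.0, 14.3 and 9.37 FPKM in Myrf-kd 1, 2 and 3, against 15.3, 16.2 and 16.3 FPKM in WT 1, 2 and 3, with the low value again in Myrf-kd 3. The receptor gene Bmpr1a, the highest of the list, averaged 23.1 ± 2.14 FPKM in Myrf-kd, against 25.4 ± 1.75 FPKM in WT, and Smad4 14.4 ± 0.598 FPKM in Myrf-kd, against 14.8 ± 1.15 FPKM in WT.

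Of 20 genes that restrain BMP signals 12 were tested, with a median log2 fold change of −0.037. By edgeR 1 of the 12 had an unadjusted p under 0.05, beside 7.46% of all genes fitted. That gene, Twsg1, which encodes a BMP-binding protein, was at 10.9 ± 0.765 FPKM in Myrf-kd, against 9.35 ± 0.706 FPKM in WT, with groups that did not overlap (edgeR adjusted p = 0.667). The ubiquitin ligase gene Smurf2 was at 14.2 ± 0.758 FPKM in Myrf-kd, against 14.1 ± 0.331 FPKM in WT, Nbl1 at 12.6 ± 1.21 FPKM in Myrf-kd, against 13.1 ± 1.22 FPKM in WT, and Fstl3 at 2.13 ± 0.503 FPKM in Myrf-kd, against 2.75 ± 0.239 FPKM in WT. Of 7 target genes 4 were tested, with a median of −0.11 and 0 at an unadjusted p under 0.05. The target Id4 averaged 11.6 ± 1.03 FPKM in Myrf-kd, against 11.3 ± 0.755 FPKM in WT, Id2 6.21 ± 0.958 FPKM in Myrf-kd, against 7.39 ± 1.19 FPKM in WT, and Id1 4.76 ± 0.744 FPKM in Myrf-kd, against 5.09 ± 1.01 FPKM in WT.

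Rasgrf1 was the steadiest of the 10 genes, with a coefficient of variation of 4.32% over the 6 libraries. It encodes a calcium-regulated exchange factor that activates Ras, is imprinted in mouse and lies at a human refractive error locus (ENSMUSG00000032356, chromosome 9, 89909908 to 89926740, plus strand; the GENCODE gene of the same identifier ends at 90026977). It was at 10.9, 11.6 and 10.4 FPKM in libraries Myrf-kd 1, 2 and 3, against 10.8, 11.7 and 11.3 FPKM in libraries WT 1, 2 and 3. No library stood apart, and at least 1899 fragments lay behind each value. Its log2 fold change was −0.052 ± 0.066 SE (edgeR adjusted p = 0.844), and the 95% interval of the ratio, 0.865 to 1.08, was the narrowest of the set. Of 21 genes of Ras activation and the ERK cascade 19 were tested, 10 with higher and 9 with lower estimates, and 0 passed. The groups did not overlap in 4 of the 19 (21.1%), beside 14.6% of all genes. Among the 4 was Nf1, a brake on Ras, at 9.90 ± 0.225 FPKM in Myrf-kd, against 9.00 ± 0.199 FPKM in WT (edgeR adjusted p = 0.686). Rasgrf2, the close relative of Rasgrf1, was at 38.3, 34.1 and 20.8 FPKM in libraries Myrf-kd 1, 2 and 3, against 37.0, 36.3 and 38.3 FPKM in libraries WT 1, 2 and 3, with Myrf-kd 3 the lowest (edgeR adjusted p = 0.747). The GTPase gene Rac1 was listed at 9.60 FPKM in Myrf-kd 2, 9.10 FPKM in WT 2, and 37.3 to 39.7 FPKM in the other 4 libraries.

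Lama2 and the ADAMTS genes are genes of the extracellular matrix, and all 3 were scarce in these retinas. Lama2 encodes a laminin chain of basement membranes (ENSMUSG00000019899, chromosome 10, 26980036 to 27616866, minus strand; GENCODE ends the gene at 27619758). It was at 0.122, 0.159 and 0.0751 FPKM in libraries Myrf-kd 1, 2 and 3, against 0.144, 0.141 and 0.126 FPKM in libraries WT 1, 2 and 3. A log2 fold change of −0.23 ± 0.28 SE was fitted (edgeR adjusted p = 0.841), and it was 0.010 without Myrf-kd 3. Adamts18, a secreted metalloprotease gene linked to human eye malformations (ENSMUSG00000053399, chromosome 8, 113697126 to 113848615, minus strand; GENCODE ends it at 113848738), was at 0.686, 0.604 and 0.349 FPKM in libraries Myrf-kd 1, 2 and 3, against 0.731, 0.605 and 0.591 FPKM in libraries WT 1, 2 and 3. Myrf-kd 3 was the lowest library here too. Its log2 fold change was −0.25 ± 0.26 SE (edgeR adjusted p = 0.806) and −0.0082 without Myrf-kd 3. Adamts19, of the same protease family (ENSMUSG00000053441, chromosome 18, 58836667 to 59054060, plus strand), was at 0.0143, 0.0820 and 0.0408 FPKM in libraries Myrf-kd 1, 2 and 3, against 0.0180, 0.0360 and 0.0450 FPKM in libraries WT 1, 2 and 3. With 4 to 20.8 fragments per library, its log2 fold change of 0.42 ± 0.63 SE (edgeR adjusted p = 0.867) was −0.26 without Myrf-kd 2, and the 95% interval of the ratio, 0.477 to 3.77, holds both a loss and a gain.

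Of 23 other laminins and laminin receptors 11 were tested, with a median log2 fold change of −0.058 and 0 at an unadjusted p under 0.05. The integrin gene Itgb1 was at 12.9 ± 0.656 FPKM in Myrf-kd, against 13.2 ± 1.96 FPKM in WT, Sgcb at 12.6 ± 0.468 FPKM in Myrf-kd, against 12.6 ± 0.602 FPKM in WT, and the dystroglycan gene Dag1 at 9.39 ± 0.773 FPKM in Myrf-kd, against 9.84 ± 0.699 FPKM in WT. In TMM-scaled CPM the groups did not overlap in 2 of the 11 (18.2%), Itga3 and the dystrophin gene Dmd, beside 14.6% of all genes. Those of Dmd overlapped in FPKM, with Dmd at 1.12 ± 0.159 FPKM in Myrf-kd, against 0.895 ± 0.104 FPKM in WT (edgeR adjusted p = 0.675). Itga3 was at 3.47 ± 0.134 FPKM in Myrf-kd, against 3.77 ± 0.0590 FPKM in WT (edgeR adjusted p = 0.706). Of 23 other ADAMTS and ADAMTS-like genes 8 were tested, 3 with higher and 5 with lower estimates. The median was −0.11, and 0 passed the threshold. By edgeR 2 of the 8 had an unadjusted p under 0.05, beside 7.46% of all genes fitted. The groups did not overlap in 3 of the 8 (37.5%), beside 14.6% of all genes. Adamts1, a protease that cleaves proteoglycans, was at 6.52, 5.76 and 4.48 FPKM in libraries Myrf-kd 1, 2 and 3, against 7.11, 7.35 and 7.15 FPKM in libraries WT 1, 2 and 3. Every Myrf-kd library lay below every WT library, and the log2 fold change was −0.38 ± 0.14 SE (edgeR adjusted p = 0.667). Adamts10 was at 2.39 ± 0.146 FPKM in Myrf-kd, against 1.99 ± 0.158 FPKM in WT (edgeR adjusted p = 0.667), Adamts3 at 7.95 ± 1.95 FPKM in Myrf-kd, against 9.77 ± 0.889 FPKM in WT, and Adamtsl5 at 2.41 ± 0.543 FPKM in Myrf-kd, against 2.66 ± 0.216 FPKM in WT.

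Among the members, Myrf-kd 3 was the library that most often lay at the edge. On the TMM-scaled CPM scale it was the highest of the 6 libraries in Gjd2, Vipr2 and Chrm2 and the lowest in Bmp4, Rasgrf1, Lama2 and Adamts18, so in 7 of 10 genes. The next, Myrf-kd 2 and WT 1, were at the edge in 4 genes each, and WT 3 in 0. Relative to the WT mean of log2 CPM, Myrf-kd 3 lay at −0.79 for Bmp4, −0.89 for Adamts18 and −0.86 for Lama2, and at 0.40 for Chrm2. The lens markers were also highest in this library, 8 of 8 of them, with a sum of 63.5 CPM against 13.9 to 24.0 CPM in WT. The sum of the fibroblast and scleral matrix markers was lowest there, at 37.1 CPM, with 4 of the 8 markers lowest in this library. The part of these tissues in the values was not tested. WT 3, the other female library, lay at −0.11 for Adamts18, −0.12 for Lama2, 0.14 for Bmp4 and 0.06 for Chrm2. With sex as a covariate 0 of the 10 genes passed (edgeR), and the log2 fold changes were −0.30 for Adamts18 and −0.28 for Lama2.

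**Figure D4:**
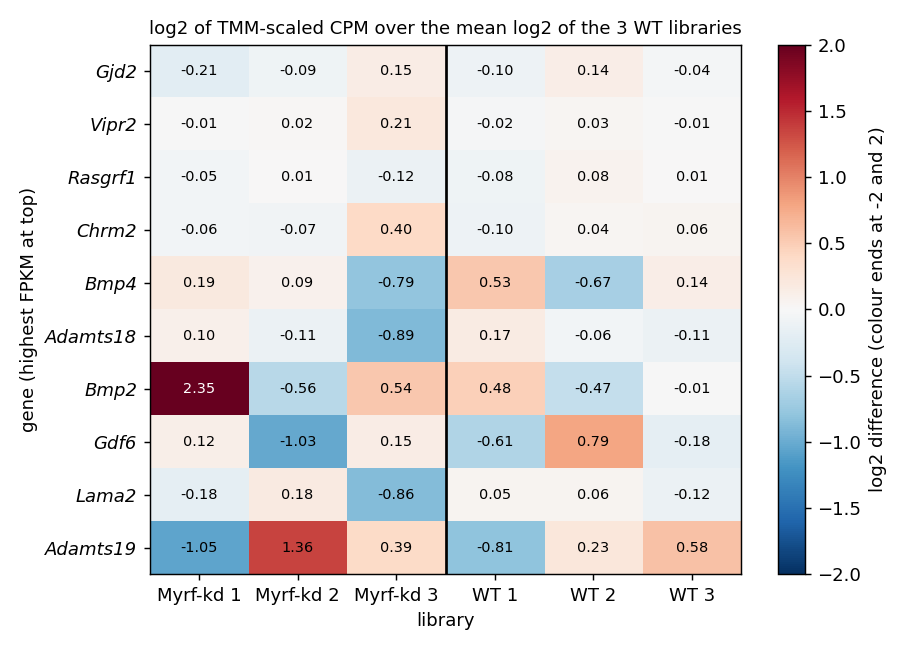
Log2 of TMM-scaled CPM of each gene (rows, highest FPKM at the top) in each library (columns), minus the mean log2 of the 3 WT libraries; red is higher, blue is lower, and the line separates Myrf-kd (left) from WT (right). The top 4 rows stay between −0.21 and 0.40, with 0.40 for Chrm2 in Myrf-kd 3. The lower rows reach further, up to 2.35 for Bmp2 in Myrf-kd 1. Not all of them vary widely in WT, as Lama2 stays between −0.12 and 0.06 there and is at −0.86 in Myrf-kd 3.

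Of 53 other genes linked to refractive error, gathered from human and animal studies as background, 38 were tested and 0 passed. The estimates were higher for 18 and lower for 20, with a median log2 fold change of −0.0046. An unadjusted p under 0.05 was reached by 5 of the 38, beside 7.46% of all genes fitted, and the groups did not overlap in 8 (21.1%), beside 14.6% of all genes. The highest expressed were Aplp2, an amyloid precursor-like gene, at 182 ± 4.62 FPKM in Myrf-kd, against 185 ± 4.37 FPKM in WT, and the cone arrestin gene Arr3, at 74.3 ± 10.1 FPKM in Myrf-kd, against 82.3 ± 13.0 FPKM in WT. The smallest p belonged to Slitrk6, a neuronal membrane protein gene linked to human myopia with deafness, which was at 4.09, 4.64 and 5.73 FPKM in libraries Myrf-kd 1, 2 and 3, against 3.65, 2.77 and 3.11 FPKM in libraries WT 1, 2 and 3. Its groups did not overlap, and its log2 fold change was 0.59 ± 0.16 SE (edgeR adjusted p = 0.667). The potassium channel gene Kcnj2 was at 2.02 ± 0.0695 FPKM in Myrf-kd, against 1.57 ± 0.0885 FPKM in WT, also without overlap (edgeR adjusted p = 0.667). The largest estimate of all lists, 1.64 ± 0.87 SE, was that of the enkephalin gene Penk, named after its value was seen (edgeR adjusted p = 0.697). Penk was at 42.3, 4.66 and 4.49 FPKM in libraries Myrf-kd 1, 2 and 3, against 4.94, 5.89 and 5.58 FPKM in libraries WT 1, 2 and 3, so Myrf-kd 1 alone was high, as for Bmp2.

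Over the 11 lists together, 131 distinct genes were tested and 0 passed by edgeR, DESeq2 or limma. By edgeR 11 of them (8.40%) had an unadjusted p under 0.05, beside 7.46% of all genes fitted. Their groups did not overlap in 21 (16.0%), beside 14.6% of all genes. The median log2 fold change was −0.020. Of the 11 list medians 4 were above 0 and 7 below it. The intervals of the 4 best measured members bound the ratio of Myrf-kd over WT within 0.810 and 1.39, while those of the 6 scarce members reach from 0.381 to 7.58. A p that misses the threshold therefore does not show that these genes are alike in Myrf-kd and WT.

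**Figure D5:**
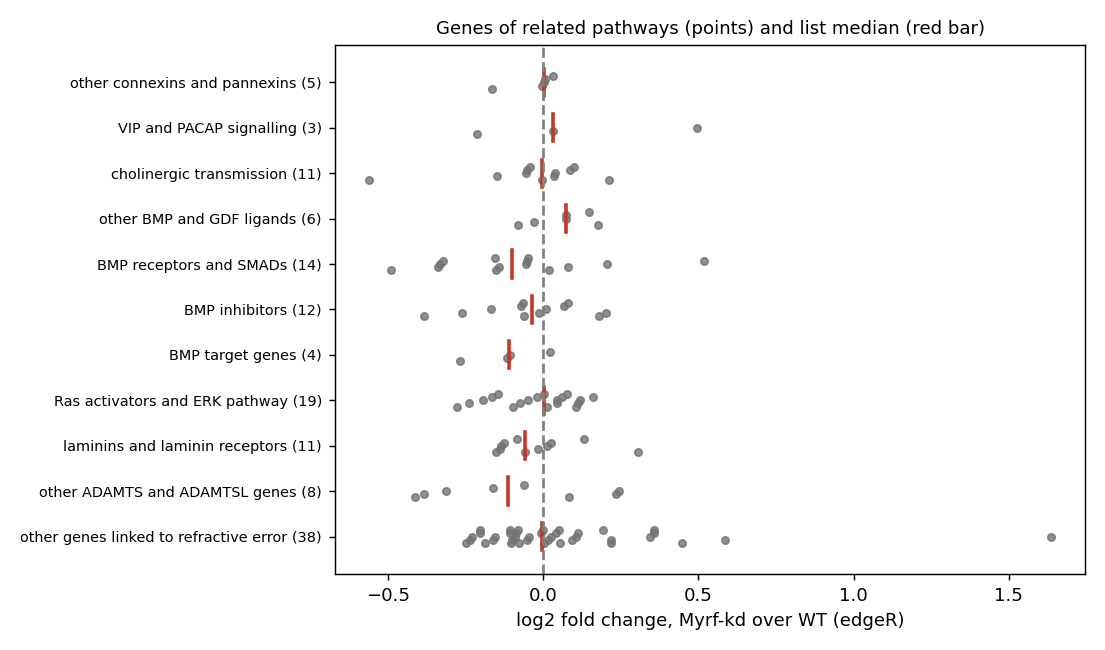
Log2 fold change of Myrf-kd over WT (horizontal axis) of the tested genes (points) of 11 related lists, with the number tested in brackets and the list median as a red bar. The medians lie between −0.11 and 0.073, and the single point beyond 1 is Penk, at 1.64.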

How the data were processed

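The authors deposited 1 table with an FPKM value and a whole-number count for each gene and library, and the sample titles gave the groups and replicate numbers. Per the submitters' processing notes, which assign no roles, the tools were StringTie 1.3.0, HISAT2 2.0 and Bowtie 0.12.2 and the build GRCm38. The deposited FPKM columns are length- and depth-scaled, per the file headers, and a gene with no signal holds 0.0001. The deposited counts were treated as estimated counts. More values were listed at 4 units (7644) than at 1 (4210) or 8 (4134), and 4 units were read as 1 fragment; rounding changed 0 values. The counting settings and the use of strand are not given in the sources used here; overlapping and antisense genes may share reads.

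Genes with a mean of at least 1 FPKM over the 6 libraries (13673), the 10 members and Myrf were tested with the quasi-likelihood test of edgeR 4.0.16 with TMM factors and genotype alone in the model, with two-sided p-values, Benjamini-Hochberg adjustment and a threshold of 0.05. The SE is the log2 fold change over the root of F. Overlap between groups and marker sums used TMM-scaled CPM. The code was tested on simulated data. Named list genes are the 3 of highest mean FPKM and the 2 of smallest p in each list; a few of them are not reported here. The members and lists were chosen with earlier results of these data known. Promoters come from RefSeq (GRCm38.p6). Gene positions are those of the table, and 7 of 10 have the same start and end in GENCODE. No libraries agreed within sampling noise (chi-square per degree of freedom at least 15.3). Alternatives were other scalings and filters, DESeq2 1.42.0, limma 3.58.1 on log2(FPKM + 1) and log2(FPKM + 0.1), counts divided by 4, a replicate block, sex as a covariate and the omission of each library.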

Additional observations from a re-analysis of the deposited data

How the results depend on the processing

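In all 17 alternatives 0 of the 10 members passed, with adjusted p-values of at least 0.631. The count over all genes, 6 by edgeR, became 2 with a mean FPKM of at least 5, 53 by DESeq2 and 0 with a replicate block, and lay between 9 and 16 with 1 library left out (10 without Myrf-kd 1, WT 1 or WT 2, 13 without WT 3 and 16 without Myrf-kd 3). The replicate numbers are not stated to pair the samples, and the correlations of same-numbered libraries were −0.041, 0.082 and 0.14. Not every library correlated best with its own number, and the block called 0 of the 10 members, with log2 fold changes of 0.84 for Bmp2, −0.30 for Adamts18 and 0.26 for Adamts19. Directions turned in 6 members when 1 library was left out and in no other alternative. Over these omissions log2 fold changes ran between −0.15 and 0.032 for Gjd2, −0.065 and 0.19 for Chrm2, −0.46 and 0.095 for Bmp4, −0.53 and 0.22 for Gdf6, −0.48 and 0.010 for Lama2, and −0.26 and 0.84 for Adamts19. The cause was not tested. On the log2(FPKM + 1) scale, which understates changes of low genes, Bmp2 was at 0.20. Medians of the lists moved beyond their spread between libraries in 3 of 88 alternative values, and counts in 0 of 88. Depth limits the 6 members below 1 FPKM, Adamts19 most, with 4 fragments in Myrf-kd 1.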
